A study of Mus musculus with 12 samples.

Results

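The axon guidance ligands and receptors were followed here across 2 mouse mammary tumor cell lines and 2 ways of growing them. The members are the protein-coding genes whose symbols name a semaphorin, plexin, neuropilin, ephrin, Eph receptor, netrin, Unc5 receptor, Dcc, Slit or Robo. A gene is a member by its name, while the choice of this family was made with earlier results of these data known. The rule found 68 of the 52550 genes in the deposited tables, of which 21950 are protein-coding. They comprise 20 semaphorins, 11 plexins and neuropilins, 8 netrins and netrin receptors, 7 Slits and Robos, 8 ephrins and 14 Eph receptors, or 34 ligands and 34 receptors.

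RNA was sequenced from D2A1 and D2.OR cells, lines that arose from separate tumors of the same kind in different mice. D2A1 cells proliferate in Matrigel, a basement membrane extract, whereas D2.OR cells stop dividing there and serve as a model of tumor cell dormancy. Each line was grown for about a week on plastic (2D) or on top of growth-factor-reduced Matrigel (3D), which gives 4 groups called D2A1 2D, D2A1 3D, D2.OR 2D and D2.OR 3D, with 3 replicates each and 12 libraries in all. The labels name no engineered gene and no drug, and D2A1 in the same culture is the reference for D2.OR. Each phenotype is thus represented by a single line, so line and phenotype cannot be told apart. For the RNA cultures the methods refer to their general section on culture, which has 2D cells in DMEM, whereas the section on the Matrigel assay gives a low-serum medium for 3D and for its own 2D cells, so matrix and medium may both differ between 2D and 3D. Both lines are polyploid. The cells of several wells were pooled for an extraction, and the Matrigel cultures went through a cold recovery step to free the cells. A general statement of the study speaks of biological repeats unless a legend notes otherwise, and the labels give these libraries a replicate number without saying what a replicate is, so the p-values measure the spread between these libraries, which may in part be technical.

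Guidance cues were first described as proteins that steer growing axons, and they act in epithelia, blood vessels and tumors as well. Secreted class 3 semaphorins bind neuropilins, which signal through plexins, while most membrane semaphorins bind plexins directly. Netrins act through Dcc and Unc5 receptors, Slits through Robo receptors, and ephrins through Eph receptor tyrosine kinases on neighboring cells, so that ligand and receptor are both membrane-bound. In mammary tissue, semaphorins, netrins and Eph receptors are known for roles in duct branching, cell adhesion and invasion.

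The deposited expected counts summed to between 47589611 and 73325069 per library, with a median of 61747126. Levels are given as TPM, a transcript share scaled to a fixed total, which is adjusted for gene length and can be compared between genes. Differences between groups are log2 fold changes ± SE from an edgeR quasi-likelihood model of the counts with a term for the batch, and a gene was called at a Benjamini-Hochberg adjusted p under 0.05 over the 16823 genes tested. The replicate number is repeated in the library names of the labels as the number that the study calls the batch, and each batch had a sequencing lane of its own. Values in 3 libraries are always given in the order of batches 1, 2 and 3. Batch 1 stood apart in several genes of both lines, for instance with 183 TPM of Cdh1 in D2.OR 2D against 22.2 and 23.0 in the other batches, and 2482 TPM of Vim in D2A1 2D against 733 and 794. Among 6 mammary epithelial markers, 2 reached a mean of 1 TPM in the D2A1 groups and 5 in the D2.OR groups. Their summed level ran from 205 to 297 TPM in D2A1 2D and from 94.0 to 220 TPM in D2A1 3D. In D2.OR it ran from 1165 to 1716 TPM in 2D and from 422 to 877 TPM in 3D, without overlap of the cultures. Krt5 was at 0.03 TPM or less in every library. Of 5 mesenchymal markers, 4 were present in every group, with sums of 1729 to 3568 TPM in D2A1 and 3585 to 6409.8 TPM in D2.OR, most of it Vim and Fn1. Zeb1 ran the other way, with 11.8 to 24.1 TPM in D2A1 libraries and 1.23 to 10.9 TPM in D2.OR libraries, and Cdh2 stayed at 0.14 TPM or less. The 4 endothelial markers summed to at most 0.68 TPM, with Tie1 at 0.02 TPM or less. The 3 hematopoietic markers summed to between 2.26 and 32.1 TPM, nearly all of it Cd68, and Ptprc was at 0.05 TPM or less. The 6 neuronal and glial markers summed to 12.2 to 45.1 TPM, mostly Map2, and Rbfox3 was at 0 in 11 of 12 libraries. What the epithelial difference between the lines, or the lower epithelial sum of D2.OR in 3D, contributes to the differences described below was not tested. In RNA from whole cultures, fewer cells that express a gene and less RNA per cell cannot be told apart.

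Of the 68 genes, 45 reached a mean of 1 TPM in at least 1 group, the level taken here as present, and 30 did so in all 4 groups. The number present was 36 in D2A1 2D, 33 in D2A1 3D, 39 in D2.OR 2D and 41 in D2.OR 3D. Ligands were present more widely than receptors, with 28 of 34 ligands and 17 of 34 receptors at this level in some group. Several receptors best known from the nervous system were at or near 0. Dcc, the attractive netrin receptor of commissural axons, was listed at no more than 0.11 TPM in any library, Robo1 at no more than 0.02 TPM and Plxna4 at no more than 0.02 TPM. The filter on low counts left 53 members for testing and removed 15, namely Dcc, Unc5a, Unc5d, Robo1, Robo3, Slit1, Plxna4, Plxnc1, Sema5b, Ephb1, Epha3, Epha5, Epha6, Epha8 and Epha10. The highest value among these was 0.22 TPM, for Epha3 in 1 library of D2.OR 3D.

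**Figure D1:**
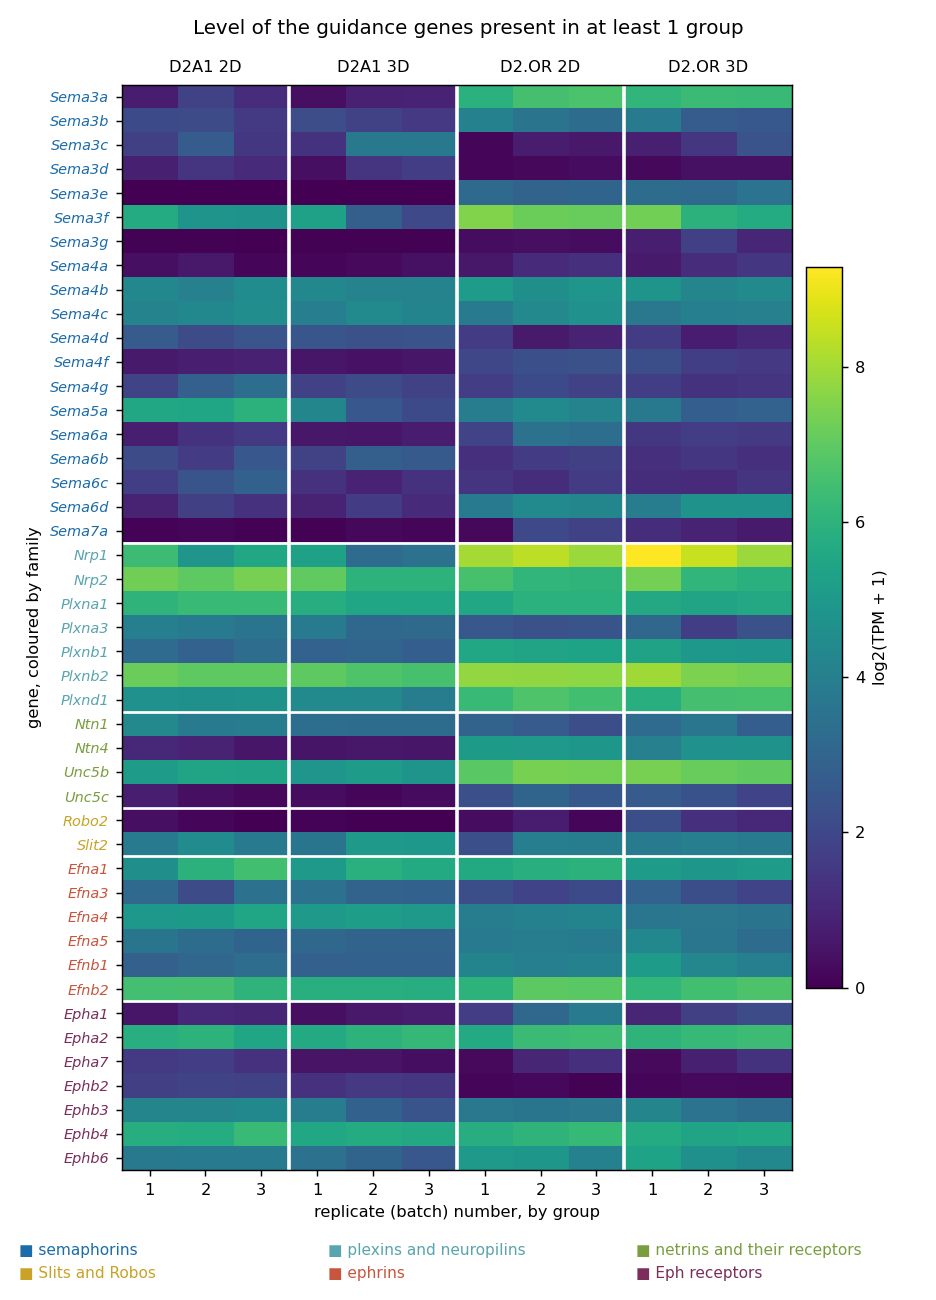
Level of the 45 guidance genes present in at least 1 group, as log2(TPM + 1) on the color scale. Columns are the 12 libraries in 4 groups with the replicate number below, rows are genes grouped and colored by family. The D2.OR columns are brighter for Sema3a, Sema3e, Nrp1, Ntn4 and Unc5b, and darker for Ephb2.

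Summed over all 68 genes, the guidance transcripts came to 1030.3 ± 48.7 TPM in D2A1 2D and 733 ± 78.02 TPM in D2A1 3D (mean ± SD, n = 3 in each group). The sums were 1710.4 ± 128 TPM in D2.OR 2D and 1662 ± 372 TPM in D2.OR 3D. By mean level over the 12 libraries, Nrp1 was the highest, at 188 TPM, followed by Plxnb2 at 162 TPM and Nrp2 at 101 TPM. Nrp1 led in the D2.OR groups alone. In D2A1 it had a mean of 51.7 TPM in 2D and 19.2 TPM in 3D, below Nrp2 (148 and 84.7 TPM) and Plxnb2 (131 and 108 TPM).

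The first comparison asks how the guidance genes differ between the lines in 2D. Of the 53 members tested, 36 were called, 23 higher and 13 lower in D2.OR, which is 67.9% of those tested. Over all genes tested, 49.8% were called, 25.4% higher and 24.4% lower in D2.OR. The median log2 difference was 0.51 over the members and -0.00338 over all genes. Of the 36 called members, 36 had the same direction in each of the 3 batches and 33 had groups that did not overlap in TPM, against 86.7% of all called genes. Agreement in direction, here and in 3D below, was read in the same batches that gave the calls and was not counted over all genes. The filter keeps a gene that is high in 1 group alone, and 3 of the tested members were at or under 3 counts in every library of 1 of the lines, so the counts over tested members carry this selection. Among the 39 members with a mean of 1 TPM or more over the 12 libraries, 31 were called, 19 higher and 12 lower. This cut also admits a gene that is high in 1 line alone, and 1 of the 39 was at that floor in 1 line. The share called among all genes at this level was not counted, so no excess can be read from the 31.

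In 3D, 35 members were called, 26 higher and 9 lower in D2.OR, against 53.8% of all genes, 27.7% higher and 26.1% lower. Their median log2 difference was 0.80, against 0.000517 over all genes. For 34 of the 35 the direction was the same in all batches, and 30 had groups without overlap, against 88.1% of all called genes. The exception in direction was Slit2. The pair of comparisons shared 29 called members, all 29 in the same direction, with 22 higher and 7 lower in D2.OR. The shares of all genes called in both cultures and in the same direction were not counted, so the 29 cannot be set against them. Called in 2D alone were Ntn1, Nrp2, Plxna1, Sema4b, Sema4g, Sema5a and Sema6c. Called in 3D alone were Robo2, Slit2, Slit3, Epha4, Efnb2 and Sema6b. Not called in either culture were Epha2, Epha7, Ephb3, Ephb4, Efna1, Efna2, Efnb3, Ntn5, Robo4, Plxnb3 and Sema4c. These lists depend on the analysis, since 10 of the 17 members not called in 2D and 9 of the 18 not called in 3D were called in at least 1 of the 24 alternatives. Without batch 1 the counts were 41 in 2D and 40 in 3D, against 53.8% and 56.9% of all genes. Without batch 2 they were 27 and 28, against 24.9% and 31%, and without batch 3 they were 29 and 29, against 31.8% and 35.2%.

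**Figure D2:**
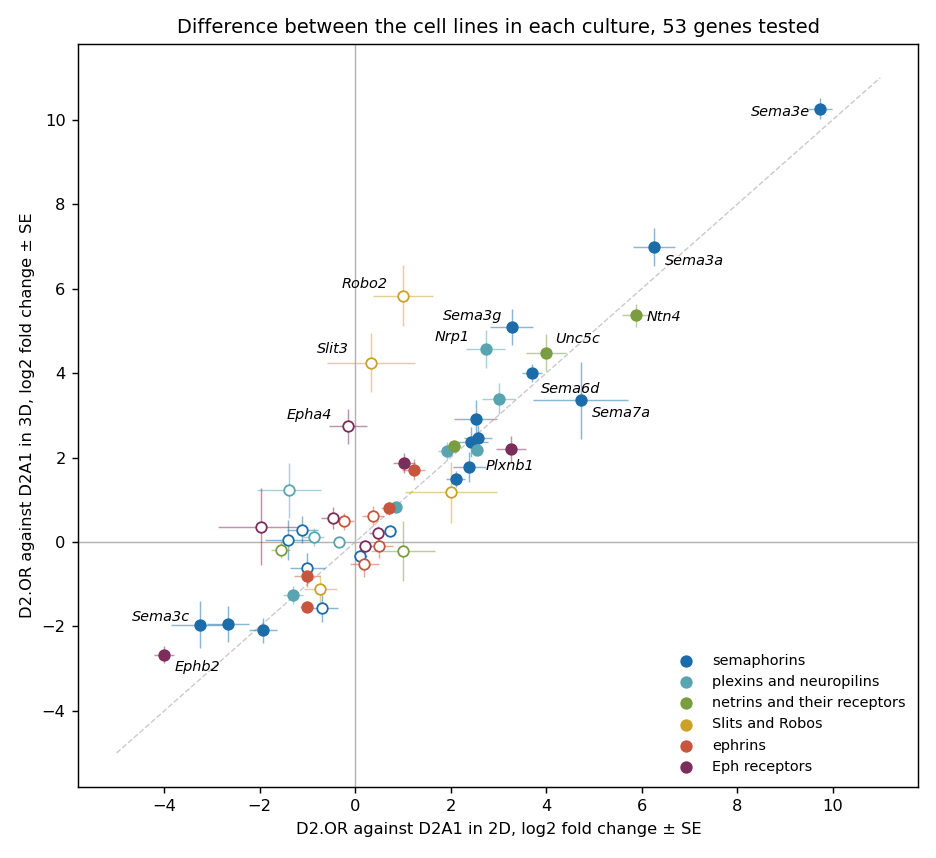
Difference between D2.OR and D2A1 in 2D (horizontal axis) and in 3D (vertical axis) for the 53 genes tested, as log2 fold change with bars of 1 SE and colors for the families. Filled points were called in both cultures (29 genes), open points in 1 or neither. Sema3e and Sema3a lie at the upper right and Ephb2 at the lower left, and Robo2, Slit3 and Epha4 lie high on the vertical axis (log2 5.84, 4.25 and 2.74) and at 0.995, 0.33 and -0.15 on the horizontal one, with an interaction that was not called. The dashed line marks equal differences.

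The class 3 semaphorins, the secreted branch of the family, were all 7 called in both cultures, against 49.8% of all genes in 2D and 53.8% in 3D. Sema3c lost its 3D call in 5 of 24 alternatives, Sema3d its 3D call in 2 and Sema3g its 2D call in 1. In D2.OR, Sema3a, Sema3b, Sema3e, Sema3f and Sema3g were higher, and Sema3c and Sema3d were lower. Their summed level was 43.9 ± 13.1 TPM in D2A1 2D and 259.9 ± 6.65 TPM in D2.OR 2D (mean ± SD, n = 3), and 29.5 ± 12.9 TPM and 185 ± 54.98 TPM in 3D.

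Sema3e encodes a semaphorin that binds Plxnd1 without a neuropilin. Sema3e measured 0.01, 0.01 and 0.01 TPM in D2A1 2D and 0, 0.01 and 0.01 in D2A1 3D, against 8.08, 6.68 and 6.95 in D2.OR 2D and 8.8, 7.95 and 10.8 in D2.OR 3D. Every D2A1 library held 1 or 2 counts and every D2.OR library at least 1286, so the lines did not overlap. Against a floor of 3 counts in the shallowest D2A1 library, the D2.OR level of Sema3e was higher by at least 445-fold in 2D and by at least 712-fold in 3D (edgeR adjusted p = 3.06e-08 and 2.91e-08). Plxnd1 measured 25.3, 24.4 and 25.3 TPM in D2A1 2D and 20.9, 19.6 and 14.4 in D2A1 3D, against 74.7, 105 and 88.8 in D2.OR 2D and 57.3, 91.8 and 95.5 in D2.OR 3D. The receptor was thus present in all 4 groups, and the lowest D2.OR library lay above the highest D2A1 library. Its log2 difference was 1.93 ± 0.20 in 2D (edgeR adjusted p = 8.09e-05) and 2.15 ± 0.21 in 3D (edgeR adjusted p = 4.33e-05).

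The gene starts of this ligand and receptor, which were both higher in D2.OR, are shown with that of Ephb2, the guidance receptor with the largest difference in the other direction in 2D. The 250 bases before each start were taken from the RefSeq sequences of GRCm38.p6 and are written 5′ to 3′ on the strand of the gene. Sema3e (ENSMUSG00000063531.7, chromosome 5, 14025276 to 14256689, plus strand) has the window chr5:14025026-14025275. Plxnd1 (ENSMUSG00000030123.15, chromosome 6, 115954811 to 115995005, minus strand) has the window chr6:115995006-115995255. Ephb2 (ENSMUSG00000028664.14, chromosome 4, 136647539 to 136835988, minus strand) has the window chr4:136836013-136836262, whose RefSeq start lies 24 bases outside the gene as the files place it. Capitals mark the GC box GGGCGG and the E-box CACCTG on either strand, which do not overlap each other.
Sema3e: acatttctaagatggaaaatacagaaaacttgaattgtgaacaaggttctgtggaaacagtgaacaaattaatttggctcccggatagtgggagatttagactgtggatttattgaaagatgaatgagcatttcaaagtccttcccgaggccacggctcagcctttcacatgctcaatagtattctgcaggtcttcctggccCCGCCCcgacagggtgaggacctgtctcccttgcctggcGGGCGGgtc
Plxnd1: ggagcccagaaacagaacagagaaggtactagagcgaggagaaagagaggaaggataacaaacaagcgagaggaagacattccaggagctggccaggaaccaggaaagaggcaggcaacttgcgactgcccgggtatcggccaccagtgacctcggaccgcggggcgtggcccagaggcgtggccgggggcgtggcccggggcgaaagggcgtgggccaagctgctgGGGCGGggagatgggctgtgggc
Ephb2: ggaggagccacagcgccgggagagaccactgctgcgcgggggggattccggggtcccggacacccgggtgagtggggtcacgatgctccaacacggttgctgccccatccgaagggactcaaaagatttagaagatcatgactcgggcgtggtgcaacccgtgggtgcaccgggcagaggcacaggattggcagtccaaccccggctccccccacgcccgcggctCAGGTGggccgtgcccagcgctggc
The Sema3e window held 2 GC boxes and 7 CpG dinucleotides, the Plxnd1 window 1 GC box and 16 CpG, and the Ephb2 window 1 E-box and 20 CpG. None of the 3 held the TATA box letters TATAAA on either strand. RefSeq windows matched 58 of the 68 members, 74 windows in all. Of these, 70.3% held a GC box, 13.5% an E-box and 2.70% a TATA box. Over 21263 windows of protein-coding genes the shares were 42.6%, 16.9% and 11.6%, and over all 32851 windows they were 32.7%, 17.2% and 12.4%. The median number of CpG was 15.5 in the windows of the members, 10 in those of protein-coding genes and 6 in all. Matches of letters are a description of the sequence and not a measured binding site.

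Sema3a, the founding collapse factor of growth cones, acts through Nrp1. Sema3a measured 0.69, 2.52 and 1.29 TPM in D2A1 2D and 0.29, 0.79 and 0.84 in D2A1 3D, against 59.4, 93.04 and 99.4 in D2.OR 2D and 67.98, 79.1 and 74.7 in D2.OR 3D. All 6 D2.OR libraries lay above all 6 D2A1 libraries. The log2 difference was 6.26 ± 0.43 in 2D and 6.996 ± 0.45 in 3D (edgeR adjusted p = 6.8e-06 and 4.26e-06). Nrp1 measured 82.03, 27.8 and 45.2 TPM in D2A1 2D and 39.02, 8.55 and 9.99 in D2A1 3D, against 259, 330.0 and 234 in D2.OR 2D and 624, 365 and 237 in D2.OR 3D. The lines again did not overlap, although the 3D values spread widely, with batch 1 highest in each line. Nrp1 was 6.63-fold higher in D2.OR 2D (log2 2.73 ± 0.42, edgeR adjusted p = 0.000666) and 23.9-fold higher in D2.OR 3D (log2 4.58 ± 0.45, edgeR adjusted p = 4.98e-05). Within batches, the 3D difference on the log2(TPM + 0.1) scale was 3.997, 5.399 and 4.55.

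Sema3f, whose receptor is Nrp2, had the highest mean of the class 3 semaphorins in each group, although in batches 2 and 3 of the 3D cultures Sema3a lay above it in D2.OR and Sema3c, at 12.3 TPM in each, in D2A1. Sema3f measured 51.2, 27.3 and 26.5 TPM in D2A1 2D and 38.5, 6.1 and 3.19 in D2A1 3D, against 184, 146 and 138 in D2.OR 2D and 157, 62.4 and 52.2 in D2.OR 3D. Batch 1 was the highest library of every group, and within each culture the lowest D2.OR library lay above the highest D2A1 library. The log2 difference was 2.52 ± 0.45 in 2D (edgeR adjusted p = 0.00157) and 2.904 ± 0.46 in 3D (edgeR adjusted p = 0.000725). Sema3f made up 78.6% ± 10.2 of the class 3 TPM in D2A1 2D and 59.9% ± 7.71 in D2.OR 2D, where Sema3a took 32.5% ± 8.996 (mean ± SD, n = 3). In 3D the order of the lines was not kept, with a Sema3f share of 42.8% ± 38.6 in D2A1 (15.5% to 87.0%) and 45.8% ± 15.1 in D2.OR. Unlike its ligand, Nrp2 was lower in D2.OR 2D, with 154, 125 and 166 TPM in D2A1 and 96.1, 67.8 and 65.3 TPM in D2.OR (log2 -0.87 ± 0.22, edgeR adjusted p = 0.0106). The 2D call was lost without the replicate block (edgeR adjusted p = 0.0914), without batch 2 (edgeR adjusted p = 0.0961) and without batch 3 (edgeR adjusted p = 0.0744). In 3D it measured 129, 62.5 and 62.5 TPM in D2A1 and 162, 68.8 and 58.7 TPM in D2.OR, the groups overlapped, and the difference was not called (log2 0.12 ± 0.22, edgeR adjusted p = 0.668).

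Sema3b, a secreted semaphorin with growth-inhibiting activity in tumors, was higher in D2.OR without overlap. Sema3b measured 3.26, 3.32 and 1.99 TPM in D2A1 2D and 3.57, 2.59 and 1.91 in D2A1 3D, against 15.8, 11.1 and 8.76 in D2.OR 2D and 13.4, 5.49 and 4.94 in D2.OR 3D. Its log2 difference was 2.102 ± 0.20 in 2D and 1.49 ± 0.20 in 3D (edgeR adjusted p = 4.72e-05 and 0.00028). Sema3g, another ligand of Nrp2, was far less abundant, at 0.02 to 0.04 TPM in D2A1 and 0.23 to 2.40 TPM in D2.OR. Sema3c and Sema3d ran the other way. Sema3c, which binds neuropilins and Plxnd1, had a mean of 3.27 ± 2.02 TPM in D2A1 2D and 0.447 ± 0.291 TPM in D2.OR 2D (log2 -3.25 ± 0.61, edgeR adjusted p = 0.00222). Sema3d had 1.23 ± 0.445 TPM and 0.15 ± 0.0755 TPM (log2 -2.67 ± 0.44, edgeR adjusted p = 0.00102). In 3D their lines overlapped, since batch 1 of D2A1 3D held only 1.6 TPM of Sema3c and 0.29 TPM of Sema3d.

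Of the 12 membrane-bound semaphorins tested (classes 4 to 7), 10 were called in 2D, 6 higher and 4 lower in D2.OR, and 7 in 3D, 5 higher and 2 lower. These are 83.3% and 58.3% of them, against 49.8% and 53.8% of all genes. The smallest p among them in both cultures was that of Sema6d, a transmembrane ligand of Plxna1. Sema6d measured 0.83, 2.37 and 1.5 TPM in D2A1 2D and 0.9, 2.15 and 1.2 in D2A1 3D, against 13.5, 20.9 and 18.2 in D2.OR 2D and 14.4, 25.96 and 25.7 in D2.OR 3D. D2.OR libraries were higher throughout, by a log2 difference of 3.71 ± 0.21 in 2D and 4.01 ± 0.21 in 3D (edgeR adjusted p = 2.22e-06 and 1.55e-06). The class 4 semaphorins were split. Sema4a and Sema4f were higher in D2.OR in both cultures (log2 2.42 ± 0.37 and 2.57 ± 0.29 in 2D), Sema4b was called higher in 2D alone, and Sema4d, the ligand of Plxnb1, was lower in both. Sema4d measured 5.31, 3.45 and 4.49 TPM in D2A1 2D and 2.11, 0.61 and 0.84 TPM in D2.OR 2D (log2 -1.93 ± 0.29, edgeR adjusted p = 0.00068). The summed class 4 level was 49.99 ± 7.69 TPM in D2A1 2D and 56.4 ± 4.79 TPM in D2.OR 2D. Sema4c, second to Sema4b by the mean of the 12 libraries but level with it in D2A1 2D (19.5 ± 2.64 and 18.9 ± 3.18 TPM), was not called in 2D (log2 0.11 ± 0.13, edgeR adjusted p = 0.528). Sema7a, a lipid-anchored semaphorin that binds Plxnc1 and integrins, was called higher in both cultures, but batch 1 of D2.OR 2D held only 0.14 TPM against 3.19 and 2.43 TPM in the others. The Sema7a call was lost in 2 of 23 alternatives in 2D and 4 of 23 in 3D. Its receptor Plxnc1 reached at most 0.19 TPM in any library.

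Among the 9 plexins and neuropilins tested, 8 were called in 2D, 5 higher and 3 lower in D2.OR, against 49.8% of all genes, and all 8 had lines that did not overlap, against 86.7% of all called genes. In 3D, 6 were called, 5 higher and 1 lower, which is 66.7%, against 53.8% of all genes. Plxnb1, the receptor of Sema4d, had a smaller p than any other receptor. Plxnb1 measured 8.55, 6.58 and 8.98 TPM in D2A1 2D and 6.6, 7.21 and 5.82 in D2A1 3D, against 46.5, 41.5 and 40.6 in D2.OR 2D and 40.1, 30.01 and 28.5 in D2.OR 3D. It was 5.85-fold higher in D2.OR 2D (log2 2.55 ± 0.11, edgeR adjusted p = 5.52e-07) and 4.55-fold higher in D2.OR 3D (log2 2.19 ± 0.11, edgeR adjusted p = 1.18e-06). Sema4d and Plxnb1 thus differed between the lines in opposite directions. Plxnb2, a receptor for several class 4 semaphorins, was the most abundant plexin in every group. Plxnb2 measured 142, 125 and 126 TPM in D2A1 2D and 125, 106 and 93.98 in D2A1 3D, against 217, 212 and 207 in D2.OR 2D and 250.1, 176 and 163 in D2.OR 3D. The log2 difference was small but free of overlap in either culture, at 0.85 ± 0.10 and 0.83 ± 0.10 (edgeR adjusted p = 0.000143 and 0.000146). The plexin-A receptors, which signal for class 3 and class 6 semaphorins, ran mixed. Plxna3 was lower in D2.OR, at 4.34 ± 0.432 TPM against 13.1 ± 2.16 TPM in 2D (log2 -1.299 ± 0.21, edgeR adjusted p = 0.000977). Plxna1, the main plexin-A in each group, differed by a log2 of -0.33 ± 0.12 in 2D (edgeR adjusted p = 0.0441) and -0.000891 ± 0.12 in 3D (edgeR adjusted p = 0.996), with a 2D call that was lost in 13 of 24 alternatives, and 10.7% of its exon bases overlap a gene on the other strand that had a mean of 0.44 TPM. Plxna2 was called higher in D2.OR at levels of 0.02 to 0.29 TPM.

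In the netrin system, Ntn4, a laminin-like netrin of basement membranes, set the lines apart. Ntn4 measured 1.09, 0.83 and 0.46 TPM in D2A1 2D and 0.44, 0.5 and 0.48 in D2A1 3D, against 32.2, 30.8 and 29.3 in D2.OR 2D and 15.4, 24.7 and 25.4 in D2.OR 3D. Without overlap, D2.OR was 58.7-fold higher in 2D (log2 5.88 ± 0.29, edgeR adjusted p = 9.18e-07) and 41.4-fold higher in 3D (log2 5.37 ± 0.28, edgeR adjusted p = 1.28e-06). Ntn1, the diffusible netrin, was lower in D2.OR 2D. Ntn1 measured 19.9, 13.4 and 13.9 TPM in D2A1 2D and 9.15, 8.67 and 8.86 in D2A1 3D, against 6.74, 5.36 and 3.68 in D2.OR 2D and 8.44, 11.6 and 5.9 in D2.OR 3D. The 2D groups did not overlap (log2 -1.56 ± 0.20, edgeR adjusted p = 0.000267) and the 3D groups did (log2 -0.18 ± 0.20, edgeR adjusted p = 0.454).

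The repulsive netrin receptors Unc5b and Unc5c were both higher in D2.OR. Unc5b measured 33.3, 42.1 and 40.1 TPM in D2A1 2D and 28.01, 33.3 and 27.3 in D2A1 3D, against 118, 167 and 163 in D2.OR 2D and 166, 138 and 129 in D2.OR 3D. All D2.OR libraries exceeded all D2A1 libraries, by a log2 of 2.08 ± 0.14 in 2D and 2.27 ± 0.15 in 3D (edgeR adjusted p = 7.03e-06 and 4.26e-06). Unc5c measured 0.72, 0.29 and 0.15 TPM in D2A1 2D and 0.23, 0.09 and 0.21 in D2A1 3D, against 3.78, 6.88 and 4.89 in D2.OR 2D and 5.31, 4.08 and 2.63 in D2.OR 3D. This receptor was under 1 TPM in every D2A1 library and above 2 TPM in every D2.OR library, with a log2 of 3.996 ± 0.43 in 2D and 4.49 ± 0.44 in 3D (edgeR adjusted p = 8.72e-05 and 4.74e-05). Ntn5 was not called in either culture and reached at most 0.43 TPM.

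The Slit and Robo genes were the sparsest family. Slit2, a secreted ligand of Robo receptors, was the only one of them present in all 4 groups. Slit2 measured 12.8, 21.5 and 12.7 TPM in D2A1 2D and 11.2, 31.9 and 29.9 in D2A1 3D, against 3.86, 14.9 and 14.5 in D2.OR 2D and 12.97, 14.6 and 13.3 in D2.OR 3D. In 3D the lines overlapped, and D2.OR was lower in batches 2 and 3 but not in batch 1. The 3D difference was called (log2 -1.12 ± 0.35, edgeR adjusted p = 0.0238), the 2D difference was not (log2 -0.73 ± 0.35, edgeR adjusted p = 0.115), and the 3D call was lost with limma on log2(TPM + 1) (adjusted p = 0.122), without batch 2 (edgeR adjusted p = 0.223) and without batch 3 (edgeR adjusted p = 0.134). Leaving out either library of these batches in the D2A1 3D or D2.OR 3D group lost it too, with edgeR adjusted p-values of 0.0797 to 0.103. Robo2, the one receptor of this family to reach 1 TPM, did so in D2.OR 3D alone. Robo2 measured 0.3, 0.08 and 0.02 TPM in D2A1 2D and 0.06, 0.01 and 0.01 in D2A1 3D, against 0.23, 0.65 and 0.09 in D2.OR 2D and 3.72, 1.37 and 1.08 in D2.OR 3D. In 3D the lines did not overlap, and D2.OR was 57.3-fold higher (log2 5.84 ± 0.72, edgeR adjusted p = 0.000184), from 2 to 11 counts in D2A1 to between 138 and 436 counts in D2.OR. Slit3 was called higher in D2.OR 3D at a mean of 0.33 ± 0.217 TPM, with overlap between the lines. Robo4, known from endothelium, reached at most 0.15 TPM.

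All 8 ephrins were tested, and 4 were called in 2D and 5 in 3D, or 50% and 62.5%, against 49.8% and 53.8% of all genes. The transmembrane ephrin Efnb1 was higher in D2.OR. Efnb1 measured 6.13, 7.27 and 9.01 TPM in D2A1 2D and 6.24, 6.47 and 6.4 in D2A1 3D, against 17.3, 15.3 and 15.8 in D2.OR 2D and 32.8, 18.5 and 15.1 in D2.OR 3D. No D2A1 library reached the lowest D2.OR library, with a log2 of 1.22 ± 0.25 in 2D and 1.72 ± 0.25 in 3D (edgeR adjusted p = 0.00307 and 0.00045). Efnb2, the ligand of Ephb4, was the most abundant ephrin. Efnb2 measured 90.7, 91.7 and 64.1 TPM in D2A1 2D and 56.9, 55.5 and 53.8 in D2A1 3D, against 63.6, 121 and 119.8 in D2.OR 2D and 69.2, 88.7 and 103 in D2.OR 3D. The lines overlapped in 2D (log2 0.38 ± 0.24, edgeR adjusted p = 0.213), and in 3D D2.OR was above D2A1 (log2 0.62 ± 0.23, edgeR adjusted p = 0.0499), a call just under the threshold. The 2D difference was called without batch 1 (log2 0.77, edgeR adjusted p = 0.00427) and without batch 1 of D2A1 2D or of D2.OR 2D alone (log2 0.64 and 0.63, edgeR adjusted p = 0.035 and 0.0395). The 3D call was lost in 14 of 24 alternatives, among them the fit without the batch term (edgeR adjusted p = 0.0582) and 9 of the 12 that leave out 1 library (edgeR adjusted p = 0.0501 to 0.178). The Efnb1 call in 2D was lost without batch 2 (edgeR adjusted p = 0.0565).

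The ephrin-A ligands, held to the membrane by a lipid anchor, did not run together. Efna4 was lower in D2.OR. Efna4 measured 29.97, 32.2 and 43.1 TPM in D2A1 2D and 31.8, 35.1 and 30.8 in D2A1 3D, against 13.8, 16.04 and 17.4 in D2.OR 2D and 11.6, 11.9 and 10.99 in D2.OR 3D. The lines were apart in both cultures, by a log2 of -1.02 ± 0.13 and -1.53 ± 0.13 (edgeR adjusted p = 0.000268 and 2.48e-05). Efna5 was higher in D2.OR, at 11.1, 8.71 and 6.88 TPM in D2A1 2D and 13.7, 14.2 and 13.2 TPM in D2.OR 2D (log2 0.72 ± 0.17, edgeR adjusted p = 0.00692) and by 0.80 ± 0.17 in 3D. Without batch 2 the Efna5 call was lost in both cultures (edgeR adjusted p = 0.107 and 0.0522), and without batch 3 in 2D (edgeR adjusted p = 0.0525). Efna3 was lower, at 8.07, 3.36 and 10.03 TPM in D2A1 2D and 3.73, 2.61 and 3.3 TPM in D2.OR 2D, with overlap (log2 -1.01 ± 0.27, edgeR adjusted p = 0.0119). Replicate 3 of D2A1 2D decided this call (edgeR adjusted p = 0.0535 without it), and the 3D call was lost without replicate 2 or 3 of either line in 3D (edgeR adjusted p = 0.0538 to 0.12). A gene on the other strand with a mean of 3.99 TPM overlaps 14.1% of the Efna3 exon bases, and whether the counting used strand is not given in the sources used here, so their reads may be mixed. The same holds for 10.5% of the Efna4 exon bases, shared with a gene on the other strand at 0.672 TPM. Efna1, the most abundant ephrin-A, was not called, and D2A1 2D ranged from 23.5 to 89 TPM.

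Of the Eph receptors, 8 of 14 were tested and 3 were called in 2D, 2 higher and 1 lower in D2.OR, and 4 in 3D, 3 higher and 1 lower. The shares were 37.5% in 2D, against 49.8% of all genes, and 50% in 3D, against 53.8%. Ephb2, a receptor tyrosine kinase for ephrin-B ligands, was the one that was lower in D2.OR. Ephb2 measured 2.36, 2.79 and 2.6 TPM in D2A1 2D and 1.48, 1.93 and 1.8 in D2A1 3D, against 0.11, 0.14 and 0.05 in D2.OR 2D and 0.13, 0.18 and 0.14 in D2.OR 3D. The lines did not overlap, with counts of 272 to 419 in D2A1 and 18 to 52 in D2.OR. The receptor was 16.1-fold lower in D2.OR 2D (log2 -4.01 ± 0.21, edgeR adjusted p = 1.42e-06) and 6.37-fold lower in D2.OR 3D (log2 -2.67 ± 0.20, edgeR adjusted p = 9.92e-06).

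Epha1, an epithelial Eph receptor, was higher in D2.OR. Epha1 measured 0.46, 1.03 and 0.94 TPM in D2A1 2D and 0.29, 0.55 and 0.64 in D2A1 3D, against 2.19, 7.69 and 13.5 in D2.OR 2D and 1, 2.41 and 3.49 in D2.OR 3D. In each culture the lines were apart, while the D2.OR libraries themselves differed up to the 13.5 TPM of batch 3 in 2D. Its log2 difference was 3.26 ± 0.32 in 2D and 2.19 ± 0.31 in 3D (edgeR adjusted p = 4.98e-05 and 0.000378). The highly expressed gene Zyx, at a mean of 218 TPM, overlaps 6.01% of the Epha1 exon bases on the other strand. Ephb6, which lacks kinase activity, was higher as well. Ephb6 measured 12.6, 13.7 and 13.4 TPM in D2A1 2D and 10.4, 7.03 and 4.74 in D2A1 3D, against 31.5, 29.4 and 15.99 in D2.OR 2D and 41.2, 24.1 and 19.02 in D2.OR 3D. Its log2 difference was 1.02 ± 0.23 in 2D and 1.87 ± 0.23 in 3D (edgeR adjusted p = 0.00531 and 0.000183), and the 2D call was lost without batch 2 (edgeR adjusted p = 0.0985). Epha2, a frequent Eph receptor in breast tumor cells and the most abundant here by the mean of the 12 libraries, though below Ephb4 in D2A1 2D, was not called. Epha2 measured 55.7, 62.7 and 43.4 TPM in D2A1 2D and 50.8, 63.02 and 71.5 in D2A1 3D, against 50.8, 78.8 and 83.3 in D2.OR 2D and 64.6, 74.2 and 82.5 in D2.OR 3D. The lines overlapped in both cultures (edgeR adjusted p = 0.0557 and 0.343), and 4 alternative analyses of all libraries called it in 2D, with log2 differences of 0.48 to 0.50. It was also called in 2D without batch 1 (log2 0.73, edgeR adjusted p = 0.00873) and without batch 1 of D2A1 2D or of D2.OR 2D alone (log2 0.69 and 0.60, edgeR adjusted p = 0.00776 and 0.0406), and in 3D when only those groups were fitted (log2 0.22, edgeR adjusted p = 0.0475). Ephb4 was similar in that its lines overlapped at 42.01 to 74.98 TPM.

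**Figure D3:**
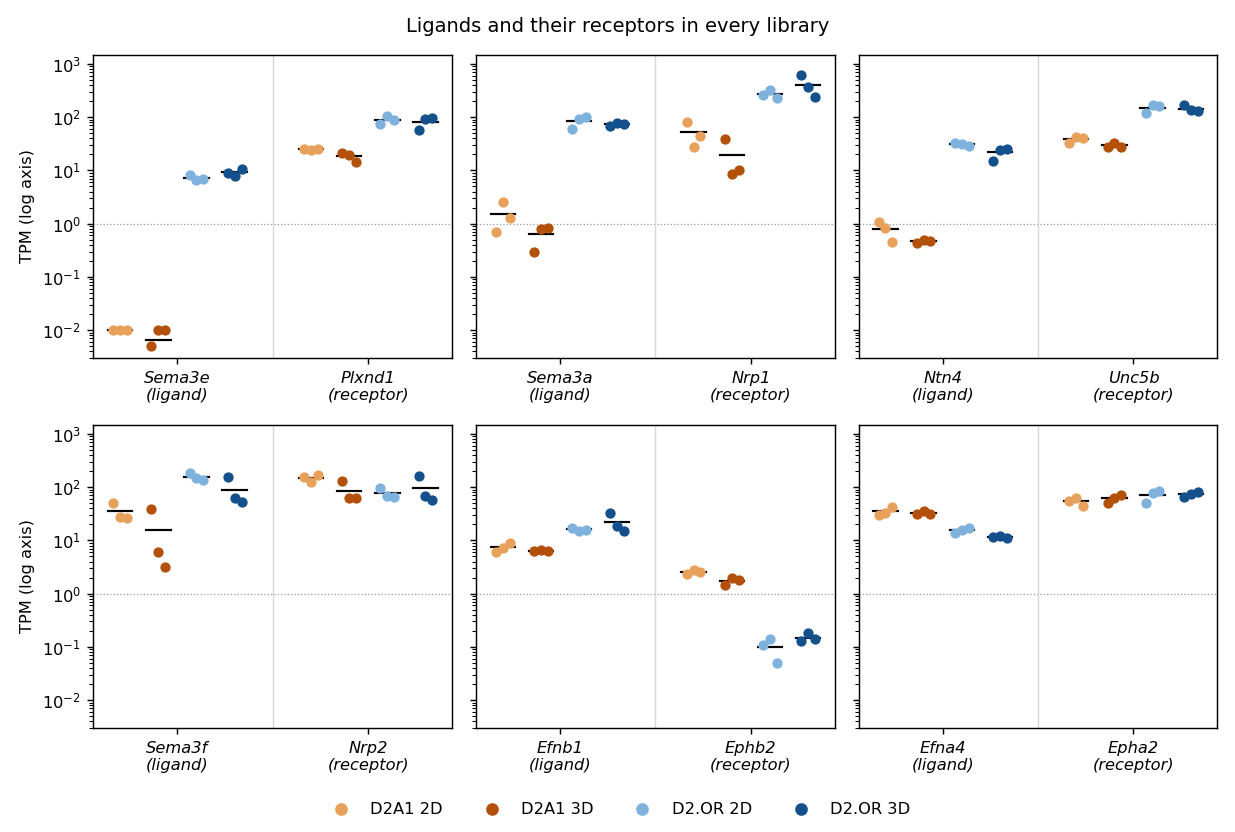
Level of 6 ligands and a receptor of each, in TPM on a log axis. Points are the 3 libraries of a group in batch order, black bars the group means, the dotted line 1 TPM, and the 1 library listed at 0 is drawn near the bottom of its panel. Ligand and receptor are both higher in D2.OR for Sema3e with Plxnd1, Sema3a with Nrp1 and Ntn4 with Unc5b, while Ephb2 is low in D2.OR where its ligand Efnb1 is high.

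Ligands were then paired with receptors that are known to bind them, by a list written from general knowledge, which gave 90 pairs among the members. The list covers 30 of the 34 ligands. Sema4b, Sema4f, Sema6c and Ntn5 have no pair in it, and Sema5a is paired with Plxnb3 alone, so the counts depend on the list. Both partners were present in 27 pairs in D2A1 2D, 22 in D2A1 3D, 26 in D2.OR 2D and 31 in D2.OR 3D, and 15 pairs were present in all 4 groups. At 5 TPM the counts were 11, 13, 18 and 14, which turns the order of 2D and 3D in both lines, and with every library over 1 TPM they were 24, 20, 21 and 22. The counts come from group means, have no test, and share genes between pairs. Pairs common to all groups were Sema3b and Sema3f with Nrp2, Sema4c, Sema4d and Sema4g with Plxnb2, Sema4d with Plxnb1, Sema6d with Plxna1, Ntn1 with Unc5b, Efna1, Efna3, Efna4 and Efna5 with Epha2, Efnb1 and Efnb2 with Ephb3, and Efnb2 with Ephb4.

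In 10 pairs, both partners were present in both D2.OR cultures and in neither D2A1 culture. For Sema3e with Plxnd1 and Ntn4 with Unc5b the missing partner in D2A1 was the ligand, and so it was for Sema4a with Plxnb1, Plxnb2 and Plxnd1. For Ntn1 with Unc5c, and for Efna1, Efna3, Efna4 and Efna5 with Epha1, it was the receptor. The level of 1 TPM lay close to some of these genes, since Ntn4 had a mean of 0.793 TPM and Epha1 of 0.81 TPM in D2A1 2D, and the number of such pairs was 5 at 0.5 TPM, 5 at 5 TPM and 9 with every library over 1 TPM. In 4 pairs, the reverse was seen, with both partners in D2A1 and none of the D2.OR cultures holding both, namely Sema3d with Nrp1 and Efna5, Efnb1 and Efnb2 with Ephb2. At the other levels these pairs numbered 5 at 0.5 TPM, 1 at 5 TPM and 8 with every library over 1 TPM, so the 10 against 4 became 5 against 5, 5 against 1 and 9 against 8. Sema3a with Nrp1 fell short in D2A1 3D, where Sema3a had a mean of 0.64 ± 0.304 TPM. Slit2 with Robo2 and Sema3g with Nrp2 were complete in D2.OR 3D alone.

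**Figure D4:**
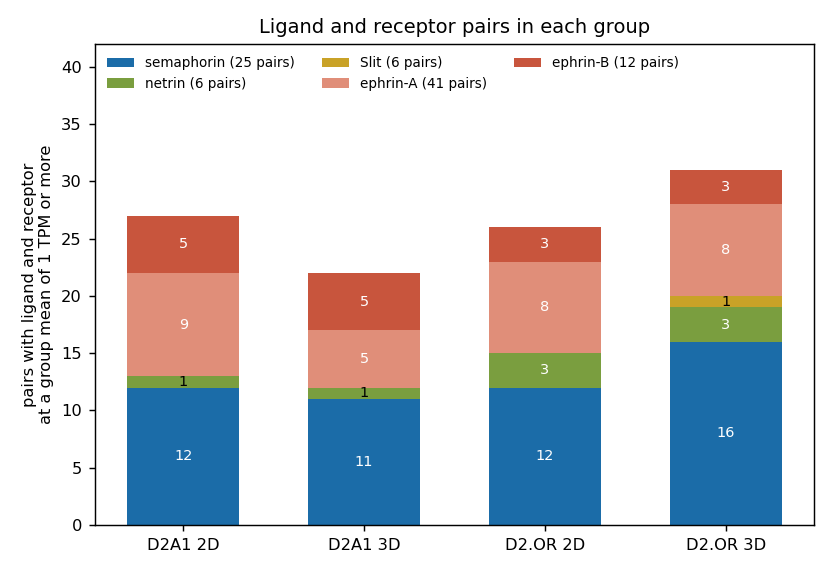
Number of ligand and receptor pairs with both partners at a group mean of 1 TPM or more, in each of the 4 groups. Stacked bars are colored by system, with the number of pairs examined in the key. Semaphorin pairs rise from 12 in D2.OR 2D to 16 in D2.OR 3D and ephrin-A pairs go from 9 in D2A1 2D to 5 in D2A1 3D, as descriptions without a test. At 5 TPM the semaphorin pairs number 6 in both D2.OR cultures, and with every library over 1 TPM they number 7 in both, while the ephrin-A pairs number 4 in both D2A1 cultures at 5 TPM and 9 and 5 with every library over 1 TPM.

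The next question is what changed from 2D to 3D within a line. In D2.OR, 5 of 53 members were called, 2 higher and 3 lower in 3D, against 1.62% of all genes tested. In D2A1, 3 were called, all lower in 3D, against 3.48% of all genes. At an unadjusted p under 0.05 there were 19 of 53 members in each line, against 17.6% of all genes in D2.OR and 31.4% in D2A1. Without the batch term edgeR called 0 members in either line, against 0.119% of all genes in D2.OR and 0.309% in D2A1. Without batch 2 or without batch 3 it called 0 members in either line, and over all genes the share was 0.00589% in D2.OR without batch 3 and 0% otherwise. Without batch 1 it called 18 members in each line, against 8.38% of all genes in D2.OR and 36.3% in D2A1. Leaving out replicate 2 or 3 of either D2.OR group gave 0 in both lines, and leaving out replicate 2 or 3 of either D2A1 group gave 0 in D2A1. The shares of all genes fell as well, to between 0.0116% and 0.18% in D2.OR and between 0.427% and 0.609% in D2A1 without such a D2.OR library, and to at most 0.121% in D2A1 without such a D2A1 library. DESeq2 called 15 of 52 members in D2.OR and 14 of 52 in D2A1, against 7.35% and 21.5% of all genes.

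Higher in D2.OR 3D were Sema3g and the Robo ligand Slit3, both scarce. Sema3g rose from 0.23, 0.3 and 0.23 TPM in 2D to 0.73, 2.4 and 1.02 TPM in 3D, with no overlap (log2 2.26 ± 0.35, edgeR adjusted p = 0.0234). Slit3 rose from 0.02, 0.02 and 0 TPM to 0.53, 0.36 and 0.1 TPM (log2 4.06 ± 0.71, edgeR adjusted p = 0.0332), which corresponds to 0 to 5 counts in 2D and 21 to 83 counts in 3D. Lower in D2.OR 3D were Epha1, Plxnb1 and Sema6a, a class 6 semaphorin that binds plexin-A receptors. Epha1 fell in each batch, with 2.19, 7.69 and 13.5 TPM in 2D and 1, 2.41 and 3.49 TPM in 3D, though the groups overlapped (log2 -1.71 ± 0.29, edgeR adjusted p = 0.0305). Plxnb1 fell from 46.5, 41.5 and 40.6 TPM to 40.1, 30.01 and 28.5 TPM (log2 -0.56 ± 0.11, edgeR adjusted p = 0.0416). Sema6a fell from 2.71, 10.3 and 9.15 TPM to 1.84, 2.19 and 1.95 TPM (log2 -1.74 ± 0.35, edgeR adjusted p = 0.0464), with the smaller change in batch 1.

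In D2A1, the largest fall was that of Sema5a, a transmembrane semaphorin with thrombospondin repeats. It measured 46.2, 44.5 and 62.01 TPM in 2D and 18.2, 4.78 and 3.28 TPM in 3D, without overlap (log2 -2.73 ± 0.51, edgeR adjusted p = 0.0367). Batch 1 fell least, with changes of -1.34, -3.19 and -4.2 within the batches on the log2(TPM + 0.1) scale. In D2.OR, Sema5a measured 14.3, 20.9 and 16.9 TPM in 2D and 12.6, 5.84 and 6.54 TPM in 3D and was not called (log2 -1.27 ± 0.48, edgeR adjusted p = 0.214). Its interaction was not called either (edgeR adjusted p = 0.292). Without batch 1 the fall in D2.OR was called (log2 -1.62, edgeR adjusted p = 0.00947), as was the interaction (log2 1.97, edgeR adjusted p = 0.0106). The interaction was also called without batch 1 of D2A1 3D alone (log2 2.33, edgeR adjusted p = 0.0416). Sema6c fell from 2.3, 4.32 and 6.45 TPM to 1.49, 0.86 and 1.5 TPM (log2 -1.597 ± 0.32, edgeR adjusted p = 0.042). Plxna1 fell from 65.03, 77.7 and 77.9 TPM to 54.8, 44.05 and 43.5 TPM (log2 -0.57 ± 0.12, edgeR adjusted p = 0.0453). Sema5a, Sema6c and Plxna1 were each higher in D2A1 2D than in D2.OR 2D, with calls that were lost in 6, 7 and 13 of 24 alternatives. In 3D the lines overlapped and none of the 3 was called between them. With all libraries the interaction was called for none of the 3 (edgeR adjusted p = 0.292, 0.181 and 0.339). A difference between the lines in their change from 2D to 3D was thus not shown in that fit. Sema5a and Sema6c each gained an interaction call in 2 of 23 alternatives.

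**Figure D5:**
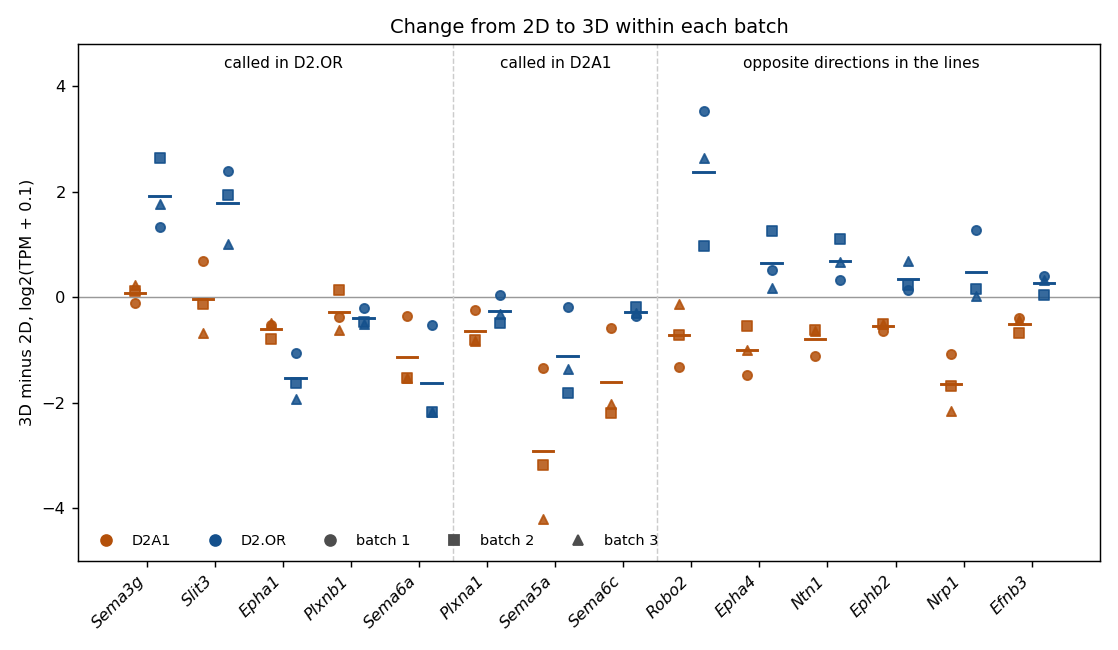
Change from 2D to 3D within each batch, as the difference of log2(TPM + 0.1), for D2A1 (orange) and D2.OR (blue). Shapes mark the batches and bars the mean of 3 batches, for the genes called in D2.OR, those called in D2A1 and the 6 genes that moved in opposite directions in the lines. Sema5a fell by 1.34 to 4.2 in D2A1, least in batch 1.

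The interaction asks whether the change from 2D to 3D differed between the lines. No member was called by edgeR (0 of 53, against 0.0238% of all genes), 18 had an unadjusted p under 0.05, 13 of them with a positive sign, against 17.8% of all genes, and the likelihood-ratio test of DESeq2 called 6 of 52, against 5.81% of all genes. The smallest p-values belonged to Robo2, Epha4 and Ntn1. From 2D to 3D, on the log2(TPM + 0.1) scale, Robo2 changed by 3.53, 0.97 and 2.63 in the batches of D2.OR and by -1.32, -0.71 and -0.13 in those of D2A1 (interaction log2 4.84 ± 0.95, edgeR adjusted p = 0.0892, on 2 to 58 counts outside D2.OR 3D). Epha4 measured 0.64, 0.08 and 0.2 TPM in D2.OR 2D and 0.96, 0.33 and 0.24 TPM in D2.OR 3D, and 0.65, 0.09 and 0.14 TPM in D2A1 2D and 0.17, 0.03 and 0.02 TPM in D2A1 3D (interaction log2 2.89 ± 0.57, edgeR adjusted p = 0.0892). On the same scale, Ntn1 was 0.32, 1.09 and 0.67 higher in 3D in the batches of D2.OR and changed by -1.12, -0.63 and -0.64 in those of D2A1 (interaction log2 1.38 ± 0.28, edgeR adjusted p = 0.0974). The 6 genes called by DESeq2 were Robo2, Ntn1, Epha4, Ephb2, Nrp1 and Slit3, all with a positive sign. Without batch 1, edgeR called 14 of 53, against 17.8% of all genes.

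Beyond the ligands and receptors, 117 other genes of these pathways were read from 5 lists, and 105 of them were tested. In 2D, 67 were called, 45 higher and 22 lower in D2.OR, with a median log2 difference of 0.26, against 49.8% of all genes called. In 3D, 62 were called, 47 higher and 15 lower, with a median of 0.41, against 53.8% of all genes called. Within a line, 2 were called from 2D to 3D in D2.OR and 6 in D2A1, against 1.62% and 3.48% of all genes. In 2D the calls were 16 of 25 semaphorin and plexin effectors, 12 of 23 ephrin and Eph effectors, 21 of 26 netrin, Slit and Robo effectors, 10 of 13 other cues and 8 of 18 co-receptors and other receptors, to be read against the same 49.8%.

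Downstream of plexins, Mical1, an oxidoreductase that takes actin filaments apart, had a mean of 0.0333 ± 0.0351 TPM in D2A1 2D and 25.1 ± 6.79 TPM in D2.OR 2D (log2 9.51 ± 0.39, edgeR adjusted p = 3.52e-07). Rnd1, a GTPase that binds plexins, had 3.803 ± 0.471 TPM and 20.9 ± 1.27 TPM (log2 2.73 ± 0.13, edgeR adjusted p = 8.5e-07). Dpysl5, of the collapsin response mediator family, had 0.357 ± 0.235 TPM and 2.11 ± 0.914 TPM (edgeR adjusted p = 1.05e-05). All 3 were higher in D2.OR. Among Eph effectors, the Rac regulator Chn2 was lower in D2.OR, at 0.36 ± 0.338 TPM against 7.51 ± 1.56 TPM (log2 -5.53 ± 0.23, edgeR adjusted p = 3.52e-07), while Rasa1 and the exchange factor Ngef were higher by log2 values of 0.85 ± 0.12 and 2.61 ± 0.37. Among effectors of netrin and Slit signaling, Ablim1, an actin-binding protein, had 2.72 ± 2.01 TPM in D2A1 2D and 64.7 ± 13.8 TPM in D2.OR 2D (log2 4.82 ± 0.36, edgeR adjusted p = 1.06e-05). Dapk1, a death-associated kinase that binds Unc5 receptors, had 0.0367 ± 0.0551 TPM in D2A1 2D, with at most 6 counts in a library, and 1.17 ± 0.551 TPM in D2.OR 2D (log2 6.43 ± 0.72). The actin regulator Vasp was higher in D2.OR by a log2 of 0.83 ± 0.11.

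Of the other receptors, the phosphatase Ptprd had 0.0867 ± 0.0115 TPM in D2A1 2D and 30.8 ± 8.23 TPM in D2.OR 2D (log2 10.31 ± 0.40, edgeR adjusted p = 2.37e-07). Flrt2, a ligand of Unc5 receptors, had 0.02 ± 0.01 TPM and 13.97 ± 3.49 TPM (log2 9.41 ± 0.53, edgeR adjusted p = 2.05e-06). The related phosphatase Ptprf had 71.2 ± 23.97 TPM and 29.5 ± 18.9 TPM (log2 -1.29 ± 0.18, edgeR adjusted p = 0.000457), and its call was lost without the replicate block (edgeR adjusted p = 0.147). The list of other cues was split in 2D, where 5 of 13 were called higher and 5 lower in D2.OR, against 49.8% of all genes called. In 3D, 6 were called higher and 3 lower, against 53.8%. The 3 genes of this list with the smallest p in 2D were all lower in D2.OR. The chemokine Cxcl12 had 5.04 ± 1.97 TPM in D2A1 2D and at most 3 counts in any D2.OR library. Sdc2, a heparan sulfate carrier that is on the list but is not itself a guidance ligand, had 6.72 ± 2.59 TPM in D2A1 2D and 0.0733 ± 0.0702 TPM in D2.OR 2D. The Wnt-enhancing Rspo2 had 30.7 ± 5.67 TPM and 8.34 ± 1.01 TPM (log2 -1.74 ± 0.11, edgeR adjusted p = 5.18e-06).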

How the data were processed

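RNA was sequenced from 12 libraries in 4 groups of 3. The authors trimmed reads with Trimmomatic 0.32, aligned them with STAR 2.5.3 to GRCm38 and quantified GENCODE genes with RSEM 1.3.0, and quality was read with FastQC 0.11.4, per the labels and methods. The deposited expected counts, which RSEM leaves unnormalized and not whole for 10.7% to 11.8% of genes, were rounded here. The TPM values deposited by the authors are scaled for length and library size, keep no depth, and were used as given. The TPM table of the series matched the library files, with a largest difference of 0. FPKM was not used.

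Rounded counts were fitted with edgeR 4.0.16 (quasi-likelihood test, R 4.3.3) with TMM, filterByExpr (16823 of 52550 genes kept), over all 12 libraries, in a model of group and batch. The common biological coefficient of variation was 21.2%. P-values were adjusted by Benjamini-Hochberg over all genes tested. Alternatives were DESeq2 1.42.0, limma 3.58.1 on log2(TPM + 1) and log2(TPM + 0.1), other scalings and filters, no block, and each batch or library left out. No 2 libraries held identical values. The batch pairs the libraries, since the labels number it and the study's model has it. Deviations from the group means correlated at 0.005 to 0.627 (median 0.399) over 18 pairs with the same number and at a median of -0.25 over the others. The deviations cancel within a group, which ties the second median to the first, so it is no separate evidence of pairing. Exon overlaps were read from the GENCODE M21 annotation, a later release than the files'. The depth gives a floor of 3 counts per library, which covers counting error only.

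The members, the lists of other pathway genes and the pairs were chosen with earlier results of these data known. Within each family, values were given for up to 4 called members with the smallest p in 2D at 1 TPM or more and for the most abundant member, for each called member of the culture comparisons, for the 3 smallest p of the interaction, and for the 3 smallest p of each list. Other members were given by counts and ranges, and those given with values beyond this rule were chosen after their values were seen.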

Additional observations from a re-analysis of the deposited data

Results flagged for a closer look

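Of the 53 members tested, 6 moved one way from 2D to 3D in every batch of D2.OR and the other way in every batch of D2A1. In all 6, the level was higher in 3D in D2.OR and lower in 3D in D2A1. Over the 16823 genes tested, 6.93% moved in opposite directions in this way, and 5.17% in the direction of these 6. The interaction (the D2.OR change minus the D2A1 change, log2) was 4.84 for Robo2, 2.89 for Epha4, 1.38 for Ntn1, 1.34 for Ephb2, 1.85 for Nrp1 and 0.72 for Efnb3. The edgeR adjusted p of these interactions ran from 0.0892 to 0.236, so that none passed the threshold. With the likelihood-ratio test of DESeq2, all but Efnb3 passed. Levels differ widely among them, from a mean of 0.0267 TPM of Robo2 in D2A1 3D to 409 TPM of Nrp1 in D2.OR 3D. Nrp1 in D2.OR changed by 0.018 in batch 3 on the log2(TPM + 0.1) scale, against 1.27 in batch 1.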

How the results depend on the processing

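Between the lines, every alternative gave counts within 1.5 times those reported, from 27 to 41 in 2D and from 28 to 40 in 3D with batches or libraries left out. Of the 36 members called in 2D, 25 were called in every alternative that tested them, as were 26 of the 35 called in 3D, and no called member reversed. The calls most often lost were those of Plxna1 (13 of 24) and Sema4g (12) in 2D and of Efnb2 (14) and Slit2 (8) in 3D. Sema6c lost its 2D call in 7, Sema5a in 6 and Nrp2 in 3. Among the differences not called, Sema4c in 2D reversed to -0.05 and -0.06 with limma on either scale, -0.06 with the library total alone, and ran from -0.03 (without replicate 3 of D2.OR 2D) to 0.26 with batches or libraries left out. Plxna1 in 3D, at -0.000891, became 0.000857 without the block, 0.02 with DESeq2, 0.02 with its size factors, 0.04 with at least 10 counts in every library, 0.01 with only the groups compared and ran from -0.09 to 0.12 with batches or libraries left out. Nrp2 in 3D ran from -0.15 (without replicate 1 of D2.OR 3D) to 0.31. Of the 15 other pathway genes given with values, Ptprf lost its call without the block (edgeR adjusted p = 0.147). The counts between cultures were less stable, from 0 to 18 in D2.OR, from 0 to 18 in D2A1 and from 0 to 14 for the interaction with batches or libraries left out. In D2.OR, 15 were called by DESeq2, 1 by limma on log2(TPM + 1), 2 by limma on log2(TPM + 0.1), 3 with the library total alone and 1 with at least 10 counts required in every library. Over all genes these settings called, in the same order, 1172 of 15947, 285 of 16823, 217 of 16823, 233 of 16823 and 159 of 12967. In D2A1, 14 were called by DESeq2, 6 by limma on log2(TPM + 0.1), 6 without a filter and 0 when only the groups compared were fitted. The counts over all genes were, in the same order, 3429 of 15947, 1135 of 16823, 1117 of 29824 and 15 of 15293. For the interaction, 6 were called by DESeq2 and 1 without a filter, against 927 of 15947 and 96 of 29824 over all genes. The cause of these differences was not tested.

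Without the replicate block that pairs the libraries, 35 were called in 2D, 32 in 3D, 0 in D2.OR, 0 in D2A1 and 0 for the interaction, against 43.9%, 47.8%, 0.119%, 0.309% and 0% of all genes. With 5 TPM as the level for presence, both partners were present in 11 pairs in D2A1 2D, 13 in D2A1 3D, 18 in D2.OR 2D and 14 in D2.OR 3D, so that D2.OR had fewer pairs in 3D than in 2D and D2A1 more, the reverse of the order at 1 TPM in both lines. Depth limits the genes at a few counts, such as Slit3 and Robo2, most.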
